A study of Mus musculus with 6 samples.

Results

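The genes described here make up the core of the MHC class I presentation pathway in lungs of mice exposed to cigarette smoke, with or without SS-31. They were chosen by name: the rows whose Ensembl identifier carries the symbol H2-K1, H2-D1, H2-T23, B2m, Tap1, Tap2, Tapbp, Psmb8, Psmb9 or Nlrc5 in GENCODE M21, 10 of the 55573 genes in the count table. All 10 passed the low-count filter, as did 16965 genes in all. The SS-31H_CS group (3 libraries) came from wild-type C57BL/6 mice aged 9 to 10 weeks that were exposed to cigarette smoke and received SS-31, a peptide antioxidant targeted to mitochondria, at 5 mg/kg once daily. The CS group (3 libraries) came from mice of the same strain, genotype and age that breathed cigarette smoke for 4 weeks, 5 days weekly, with 2 daily exposures lasting 75 min each. Smoke is thus common to all 6 libraries, and no smoke-free lung was compared. Total RNA from lung tissue was sequenced. The labels give the smoke schedule for the CS mice only, and nothing in them ties a library to its own mouse, so the p-values measure the spread between these libraries.

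MHC class I molecules display short peptides from the inside of a cell to CD8 T cells and natural killer cells. Peptides are cut by the proteasome, whose interferon-inducible form carries the subunits encoded by Psmb8 and Psmb9, pumped into the endoplasmic reticulum by the transporter encoded by Tap1 and Tap2, and loaded, with the help of tapasin (Tapbp), onto a heavy chain bound to beta-2 microglobulin (B2m). Almost all nucleated cells carry the pathway, endothelium and leukocytes strongly, and interferon gamma raises it, in part through the transactivator NLRC5.

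Total counts ran from 15611925 to 16942014 in the SS-31H_CS libraries and from 17056917 to 17360052 in the CS libraries. The libraries held the markers of lung: the surfactant and airway genes Sftpc, Sftpb, Sftpa1, Scgb1a1 and Ager summed to 37421 to 69795 CPM (counts scaled to the TMM-adjusted library total) in SS-31H_CS and to 37273 to 43416 CPM in CS. CS replicate 3 stood apart in lymphocyte markers. The 6 B cell markers summed to 287, 292 and 297 CPM in SS-31H_CS replicates 1, 2 and 3. In CS replicates 1, 2 and 3 the sums were 208, 280.3 and 55.2 CPM. The sums did not overlap between the groups, but taken singly 0 of the 6 markers were without overlap. Over all genes tested 26.1% were without overlap. SS-31H_CS replicate 3 was lowest in neutrophil markers, whose 6 genes summed to 459.6 CPM against 3380.0 and 1289.6 CPM in SS-31H_CS replicates 1 and 2. In CS replicates 1, 2 and 3 they summed to 3013, 2385 and 3486 CPM, so SS-31H_CS replicate 2 was also below every CS library. All 6 had a negative log2 fold change (median -0.95), and edgeR called 0. The class I results are given with and without CS replicate 3 and SS-31H_CS replicate 3.

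None of the 10 genes differed between the groups beyond the spread of the libraries. In the quasi-likelihood test of edgeR, with Benjamini-Hochberg adjustment over all genes, 0 of 10 passed at an adjusted p under 0.05, where 0.153% of all genes tested did (26 genes, 0.0707% higher and 0.0825% lower in SS-31H_CS). At an unadjusted p under 0.05 there were also 0 of 10, where 18.2% of all genes were below it, and DESeq2 (5.78% of its genes called) and limma voom (0.0354% called) called 0 of 10 as well. The SS-31H_CS and CS values overlapped in all 10 genes, whereas over all genes tested the groups did not overlap in 26.1%. The median log2 fold change of the 10 genes was -0.03, beside 0.01 over all genes tested, with 4 positive and 6 negative values (51.4% of all genes were positive) from -0.40 (Nlrc5) to 0.24 (H2-K1). The 95% intervals exclude a 2-fold change either way for 9 of the 10 genes, Nlrc5 being the exception, and a 1.5-fold change either way for 4 of them. Smaller changes in either direction remain possible. In RNA from whole lung, fewer cells of a type and less RNA per cell cannot be told apart.

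**Figure D1:**
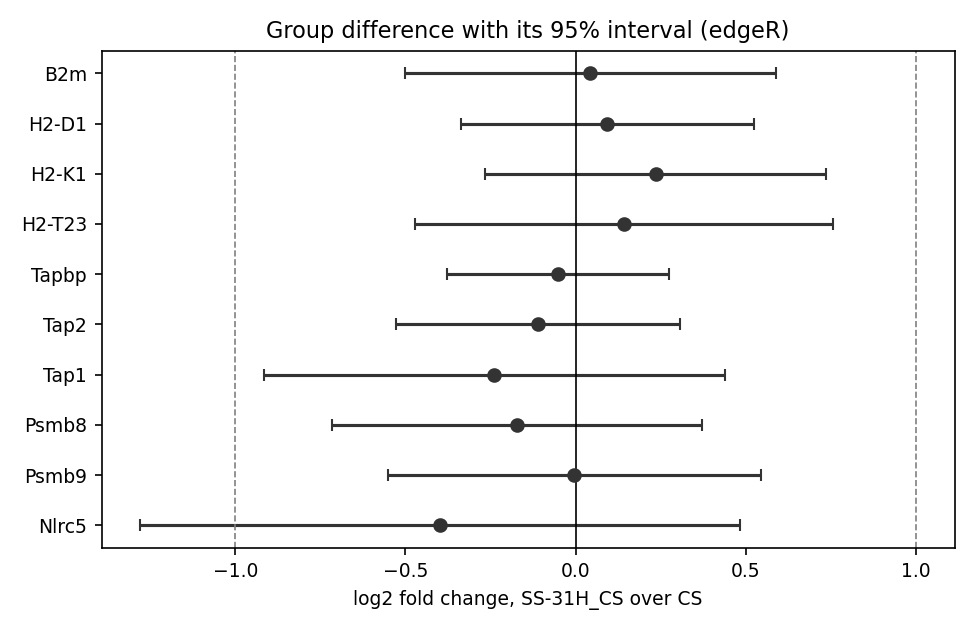
Log2 fold change of each class I gene, SS-31H_CS over CS (horizontal axis), with its 95% interval from edgeR's quasi-likelihood fit on 3 libraries a group; dashed lines mark a 2-fold change either way. All intervals hold 0, and only that of Nlrc5 (-1.28 to 0.48) reaches past a dashed line.

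Per-gene values below are CPM in replicates 1, 2 and 3 of each group. The proteasome subunit gene Psmb8 (ENSMUSG00000024338, GRCm38 chromosome 17, 34197721 to 34201454) encodes LMP7, which takes the place of the standard subunit encoded by Psmb5. Psmb8 was at 119, 161 and 80.2 CPM in SS-31H_CS, against 114, 149.6 and 143 CPM in CS. Its SS-31H_CS values spanned 2.01-fold and enclosed the whole CS range (log2 fold change -0.17, SE 0.24, adjusted p = 0.722). Psmb9 (ENSMUSG00000096727, chromosome 17, 34181987 to 34187764) encodes LMP2, the counterpart of the standard subunit encoded by Psmb6. For Psmb9 the libraries gave 83.6, 113 and 57.7 CPM in SS-31H_CS and 75.1, 103 and 76.3 CPM in CS. The group means were nearly equal, at 84.7 ± 27.6 CPM in SS-31H_CS and 84.8 ± 15.9 CPM in CS (SD, n = 3 each), with a log2 fold change of -0.0032 (95% interval -0.55 to 0.55, adjusted p = 0.996).

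The inducible subunits replace standard ones in the same particle, so each was set against its standard counterpart. A ratio within a library does not depend on how libraries are scaled. On the log2 CPM scale the difference Psmb8 minus Psmb5 was 0.93, 1.29 and 0.28 in SS-31H_CS and 0.75, 1.18 and 0.72 in CS. For Psmb9 minus Psmb6 it was -0.26, 0.35 and -0.69 in SS-31H_CS and -0.40, 0.21 and -0.75 in CS. The third inducible subunit gene, Psmb10, gave 0.85, 1.04 and 0.41 against Psmb7 in SS-31H_CS, and 0.63, 1.11 and 0.64 in CS. Replicate 2 had the highest value of its group for all 3 ratios, and the groups overlapped in each. Group means differed by -0.05 (Psmb8 to Psmb5, exact two-sided permutation p = 1), 0.12 (Psmb9 to Psmb6, exact p = 0.7) and -0.03 (Psmb10 to Psmb7, exact p = 0.9), with an adjusted p of 1 for each over the 3 ratios; 3 libraries against 3 cannot give a p below 0.1. Leaving out SS-31H_CS replicate 3 turned the difference for Psmb8 to 0.23 and that for Psmb10 to 0.15, and leaving out CS replicate 2 turned them to 0.09 and 0.13. For Psmb9 the difference was -0.16 without SS-31H_CS replicate 2 and -0.10 without CS replicate 3.

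**Figure D2:**
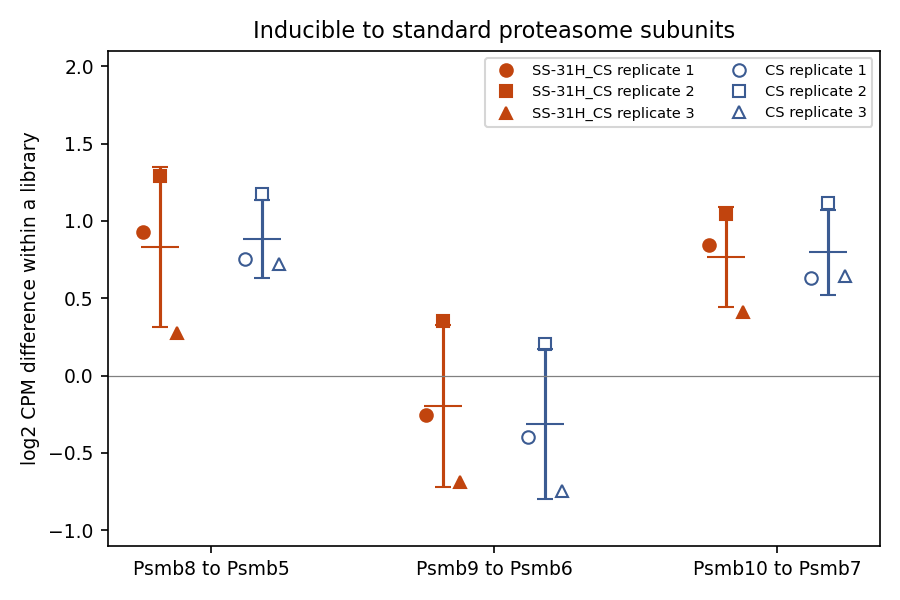
Log2 CPM difference between an inducible proteasome subunit and its standard counterpart in each library (vertical axis), with the mean and SD of each group as horizontal mark and bars. In each of the 3 ratios the square of replicate 2 is the highest point of its group, and the SS-31H_CS and CS points overlap.

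The peptide transporter genes lie beside the subunit genes in the class II region of the MHC. Tap1 (ENSMUSG00000037321, chromosome 17, 34187553 to 34197225) was at 145, 217 and 99.1 CPM in SS-31H_CS, against 129, 222 and 193 CPM in CS. SS-31H_CS replicate 2 and CS replicate 2 were nearly level, and the lowest value was in SS-31H_CS replicate 3 (log2 fold change -0.24, SE 0.29, adjusted p = 0.692). Tap2 (ENSMUSG00000024339, chromosome 17, 34203527 to 34216321), the partner chain of the transporter, showed less spread, with 176, 213 and 135 CPM in SS-31H_CS and 167, 217 and 181 CPM in CS (-0.11, SE 0.18, adjusted p = 0.775). Tapbp (ENSMUSG00000024308, chromosome 17, 33915899 to 33929292) encodes tapasin, which bridges the transporter and the empty heavy chain. It was the steadiest of the 10 genes, at 391, 433 and 324 CPM in SS-31H_CS and 364, 434 and 392 CPM in CS, with a within-group SD of 0.18 on the log2 scale. Its log2 fold change was -0.05 (95% interval -0.38 to 0.28, adjusted p = 0.872). Exons of other annotated genes cover 29.0% of the exonic length of Tapbp, 18.5% of that of Tap2 and 14.7% of that of Psmb8, all on the opposite strand but for 4.11% of Tapbp, and the strand setting of the counting is not given in the sources used here.

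The classical heavy chains H2-K1 and H2-D1 present peptides to CD8 T cells. H2-K1 (ENSMUSG00000061232, chromosome 17, 33996017 to 34000347) was at 1888, 2654 and 1585 CPM in SS-31H_CS, against 1633, 2066 and 1506 CPM in CS. Each SS-31H_CS library was above the CS library of the same number. The replicate numbers have no stated meaning and were not taken as pairs, and the ranges overlapped (log2 fold change 0.24, SE 0.22, adjusted p = 0.591). Without SS-31H_CS replicate 2 the log2 fold change of H2-K1 was 0.00044. H2-D1 (ENSMUSG00000073411, chromosome 17, 35262730 to 35267499) gave 2201, 2607 and 1663 CPM in SS-31H_CS and 1963, 2250.4 and 1852 CPM in CS (0.09, SE 0.19, adjusted p = 0.815). H2-T23 (ENSMUSG00000067212, chromosome 17, 36029773 to 36032855) encodes Qa-1, a nonclassical chain recognised by the CD94 and NKG2 receptors of natural killer cells. H2-T23 was at 419, 469.9 and 247 CPM in SS-31H_CS, against 286, 451 and 292 CPM in CS (0.14, SE 0.27, adjusted p = 0.801). Here SS-31H_CS replicates 1 and 2 and CS replicate 2 were high and the other 3 libraries low, so the groups interleaved. B2m (ENSMUSG00000060802, chromosome 2, 122147686 to 122153083), the light chain of every class I molecule, stood at 1147, 1876 and 1045 CPM in SS-31H_CS and at 1189, 1556 and 1200.1 CPM in CS (0.04, SE 0.24, adjusted p = 0.938).

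Heavy chain genes are alike in sequence, so some of their reads may be shared. Of all 50-base stretches of the annotated transcripts, 9.63% in H2-K1, 12.8% in H2-D1 and 13.6% in H2-T23 also occur in a transcript of another gene, most often H2-Q10, H2-Q1 and H2-T-ps. At 100 bases the shares were 0.957%, 3.59% and 3.15%. No 50-base stretch of B2m, Psmb9 or Nlrc5 recurred. How such reads were counted is not given in the sources used here, so the levels of the heavy chain genes carry that uncertainty. Within a library the log2 CPM difference H2-K1 minus H2-D1 stayed between -0.22 and 0.03 in SS-31H_CS and between -0.30 and -0.12 in CS. The log2 CPM difference B2m minus H2-K1 was -0.72, -0.50 and -0.60 in SS-31H_CS and -0.46, -0.41 and -0.33 in CS. These ranges did not overlap, in 1 of the 5 ratios between class I genes that were computed without a test, and over all single genes tested 26.1% did not overlap.

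Nlrc5 (ENSMUSG00000074151, chromosome 8, 94434356 to 94527272), the transactivator that binds class I promoters through the same factors that CIITA uses at class II promoters, was the most variable of the 10 genes. It was at 50.6, 85.1 and 26.0 CPM in SS-31H_CS (857, 1394 and 442 counts), against 50.2, 85.6 and 77.1 CPM in CS (852, 1495 and 1250 counts). Replicates 1 and 2 were nearly level between the groups, and SS-31H_CS replicate 3 had the lowest value. The SS-31H_CS libraries spanned 3.28-fold and the CS libraries 1.70-fold, while the group difference was 0.759-fold (log2 fold change -0.40, 95% interval -1.28 to 0.48, adjusted p = 0.606). Without SS-31H_CS replicate 3 the log2 fold change of Nlrc5 was -0.07, and without SS-31H_CS replicate 2 it was -0.89 (adjusted p = 0.306). Relative to H2-K1 in the same library, Nlrc5 was at -5.22, -4.96 and -5.93 on the log2 CPM scale in SS-31H_CS and at -5.02, -4.59 and -4.29 in CS, and these ranges overlapped.

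Per length, in the authors' FPKM, which divides by gene length, the light chain was the most abundant. B2m averaged 1616 ± 586 FPKM in SS-31H_CS and 1504 ± 275 FPKM in CS (SD, n = 3 each). H2-D1 followed with 855 ± 207 FPKM in SS-31H_CS and 771 ± 99.3 FPKM in CS, and H2-K1 with 712 ± 211 FPKM in SS-31H_CS and 581 ± 114 FPKM in CS. H2-T23 (134 ± 43.5 FPKM in SS-31H_CS, 117 ± 34.9 FPKM in CS) and Tapbp (108 ± 17.9 FPKM in SS-31H_CS, 107 ± 11.4 FPKM in CS) could not be ordered, H2-T23 being above Tapbp in 3 of 6 libraries. Below them came Tap2 at 47.2 ± 11.6 FPKM in SS-31H_CS and 48.9 ± 7.75 FPKM in CS, and Psmb8 at 36.4 ± 13.1 FPKM in SS-31H_CS and 39.3 ± 5.70 FPKM in CS. Tap1 stood at 28.8 ± 11.8 FPKM in SS-31H_CS and 32.5 ± 8.90 FPKM in CS, Psmb9 at 23.7 ± 8.28 FPKM in SS-31H_CS and 22.8 ± 4.83 FPKM in CS, and Nlrc5 at 6.52 ± 3.75 FPKM in SS-31H_CS and 8.20 ± 2.19 FPKM in CS. Every other neighbouring pair kept its order in 6 of 6 libraries. The SS-31H_CS means of H2-D1 and H2-K1, of Tap2 and Psmb8, of Psmb8 and Tap1 and of Tap1 and Psmb9 differed by less than the SD between libraries.

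**Figure D3:**
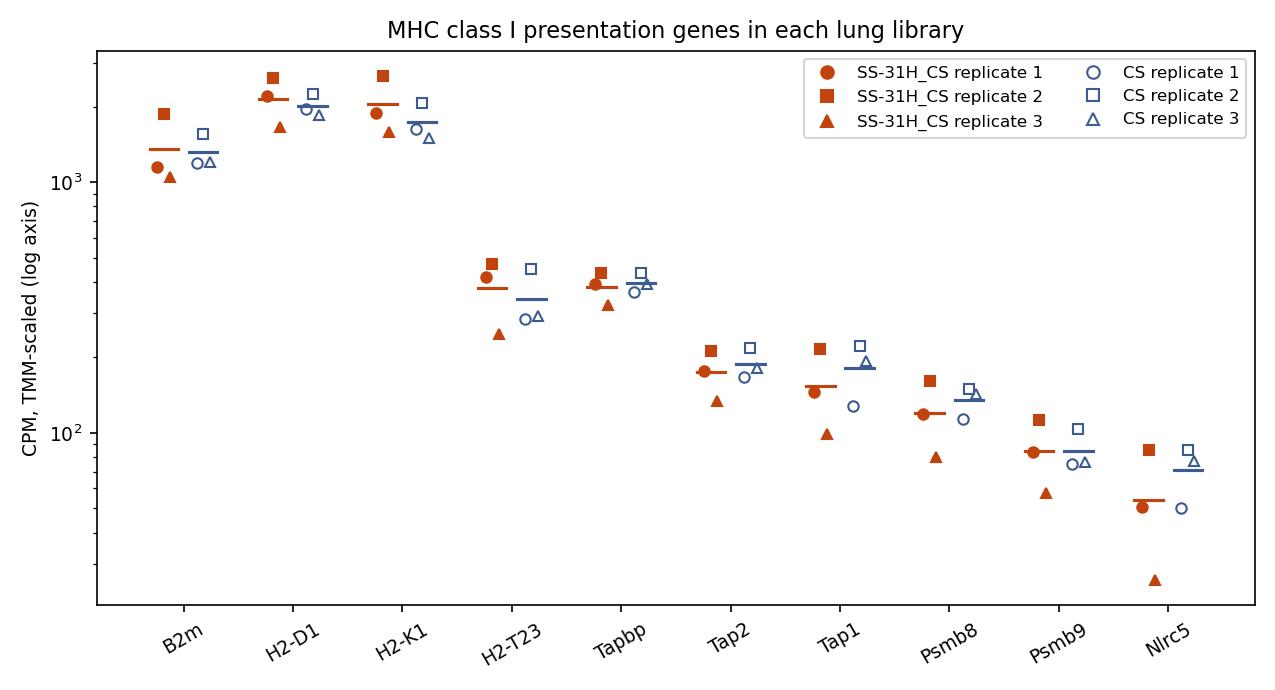
CPM of the 10 class I genes in each library (log axis); filled symbols are SS-31H_CS, open symbols CS, the shape marks the replicate number and the horizontal line the mean of 3 libraries. In all 10 genes the square of replicate 2 is the highest point of its group, and the SS-31H_CS triangle of replicate 3 is the lowest of its group.

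The 10 genes varied together between libraries of the same treatment. Replicate 2 was the highest SS-31H_CS library and replicate 2 the highest CS library in 10 of 10 genes, a combination found in 10.8% of all genes tested. SS-31H_CS replicate 3 was the lowest of its group in 10 of 10 (32.2% of all genes), and CS replicate 1 the lowest of its group in 8 of 10, CS replicate 3 being lowest for H2-K1 and H2-D1. The shared replicate number has no stated meaning. Averaged over the 10 genes, the log2 level relative to the mean of the 6 libraries was -0.02, 0.40 and -0.50 in SS-31H_CS replicates 1, 2 and 3, and -0.17, 0.30 and -0.01 in CS replicates 1, 2 and 3. The summed level of the 10 genes was 6620, 8829 and 5261 CPM in SS-31H_CS and 5969, 7536 and 5912 CPM in CS. Their median within-group SD was 0.37 on the log2 scale, against 0.22 over all genes tested and 0.15 over the 4168 other genes at or above the level of the lowest of the 10. In each of the 10 genes the fold between the highest and the lowest SS-31H_CS library was larger than the fold between the groups. These genes are not independent of each other, and the counts are a description of the 6 libraries.

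The promoters of 4 genes are printed here. Class I promoters are known to carry binding elements for interferon regulatory factors and for the complex that NLRC5 joins. Whether such elements bear on the variation between the libraries was not tested. The windows hold 250 bases before and 50 after the RefSeq start on GRCm38.p6. RefSeq windows were found for 8 of the 10 genes, Tap2 and Nlrc5 having no entry. Capitals mark matches, on either strand, to an interferon regulatory factor element (AANNGAAA), a Y box (CCAAT), an X2-like element (TGACG) and an NF-kB element (GGG, any pair of bases, TTCCC).
H2-K1 (chr17:34000298-34000597, reverse strand): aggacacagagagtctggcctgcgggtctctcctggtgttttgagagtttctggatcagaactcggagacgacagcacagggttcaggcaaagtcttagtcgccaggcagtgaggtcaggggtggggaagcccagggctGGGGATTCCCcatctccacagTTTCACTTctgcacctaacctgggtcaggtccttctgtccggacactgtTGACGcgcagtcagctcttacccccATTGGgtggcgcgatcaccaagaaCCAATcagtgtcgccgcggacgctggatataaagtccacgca
H2-D1 (chr17:35262844-35263143, forward strand): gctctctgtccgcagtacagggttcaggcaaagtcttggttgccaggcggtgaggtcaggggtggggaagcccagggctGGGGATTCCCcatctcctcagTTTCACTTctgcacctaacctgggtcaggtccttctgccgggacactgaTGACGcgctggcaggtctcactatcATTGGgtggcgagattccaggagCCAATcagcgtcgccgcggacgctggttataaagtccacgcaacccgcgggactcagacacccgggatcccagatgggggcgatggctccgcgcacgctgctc
B2m (chr2:122147437-122147736, forward strand): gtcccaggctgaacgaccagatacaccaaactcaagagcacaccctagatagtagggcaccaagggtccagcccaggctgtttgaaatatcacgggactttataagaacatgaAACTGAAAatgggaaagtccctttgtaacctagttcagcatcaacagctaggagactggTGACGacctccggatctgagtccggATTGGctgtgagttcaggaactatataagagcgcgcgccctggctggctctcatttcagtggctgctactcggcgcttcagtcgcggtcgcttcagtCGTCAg
Tap1 (chr17:34187306-34187605, forward strand): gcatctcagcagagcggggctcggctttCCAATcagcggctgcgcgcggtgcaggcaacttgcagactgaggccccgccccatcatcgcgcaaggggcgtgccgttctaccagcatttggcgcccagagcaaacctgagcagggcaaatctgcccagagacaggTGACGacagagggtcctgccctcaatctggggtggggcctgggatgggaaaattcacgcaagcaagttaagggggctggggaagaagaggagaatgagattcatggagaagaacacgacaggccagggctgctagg

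In the H2-K1 and H2-D1 windows the 4 elements occur in the same order, the NF-kB element first, then the interferon regulatory factor element, the X2-like element and a pair of Y boxes. Aligned without gaps, the windows were identical at 176 of 240 bases, although the genes lie 1262 kb apart. B2m held the interferon regulatory factor element, the X2-like element and the Y box and no match to the NF-kB letters. The Tap1 window is also that of Psmb9 read from the other strand: their starts lie 226 bases apart and point away from each other, and 275 bases of the windows are the same. Of the 8 windows, 4 held the interferon regulatory factor element (H2-K1, H2-D1, H2-T23 and B2m), 7 a Y box, 5 the X2-like element and 2 the NF-kB element. Over all 32851 mouse promoter windows of the same length the shares were 23.9%, 37.4%, 20.8% and 1.75%. The Psmb8 window held none of the 4. The Y box and X2-like matches of Tap1 and Psmb9 lie in their shared bases and are counted for both genes. A match is a description of the letters and was not tested for binding.

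Tap1 and Psmb9, which share that window, did not keep a fixed ratio. The log2 CPM difference Tap1 minus Psmb9 was 0.79, 0.94 and 0.78 in SS-31H_CS and 0.77, 1.11 and 1.34 in CS. CS replicate 3 held the highest ratio, with Tap1 above and Psmb9 below their means over the 6 libraries. In GENCODE M21 exons of Tap1 and Psmb9 overlap over 212 bases on opposite strands. That is 3.87% of the exonic length of Tap1 and 5.79% of that of Psmb9. The strand setting is not given, so how reads there were counted is not known.

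Genes outside the 10 with the most similar profile were sought among the 10844 averaging 10 CPM or more, by the root mean square difference between profiles centred and scaled to unit spread over the 6 libraries. The nearest were Gbp5 (0.157), Sp110 (0.219), Fbxl7 (0.247) and Mmrn2 (0.249). The 10 genes themselves lay between 0.147 (Tapbp) and 0.629 (H2-K1) from their own average. Gbp5, an interferon-induced guanylate-binding protein gene, had centred log2 values of -0.12, 0.93 and -1.08 in SS-31H_CS and -0.37, 0.49 and 0.16 in CS.

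Among 28 interferon signalling and response genes, 27 were tested, and edgeR called 0, limma voom 0 and DESeq2 0. An unadjusted edgeR p below 0.05 was found for 2, where 18.2% of all genes tested were below it. Their median log2 fold change was -0.27, beside 0.01 over all genes tested, with 18 of 27 negative. The 4 with the lowest p were Ifngr1, a chain of the interferon gamma receptor (211 ± 26.9 CPM in SS-31H_CS and 274 ± 16.6 CPM in CS, -0.38, adjusted p = 0.197), Cd274, the PD-L1 gene (-0.82, adjusted p = 0.246), Jak1, a kinase of the receptor (-0.24, adjusted p = 0.321), and Igtp, an interferon-induced GTPase gene (-0.92, adjusted p = 0.364). Ifng itself had between 1 and 14 counts in any library and did not pass the low-count filter. In SS-31H_CS the libraries had the same order as for the class I genes. Replicate 2 was highest in 26 of 27 genes (31.5% of all genes tested) and replicate 3 lowest in 27 of 27 (32.2%). In CS the order differed, with replicate 3 highest in 17 of 27 (39.9% of all genes tested). CS replicate 2 was highest in 10 of 27, near its share of 32.2% over all genes tested. The average centred log2 level of the list was -0.25, 0.62 and -0.85 in SS-31H_CS replicates 1, 2 and 3, and -0.16, 0.17 and 0.47 in CS replicates 1, 2 and 3.

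Of 20 other genes of the class I pathway, covering peptide supply, loading and transcription, edgeR, limma voom and DESeq2 each called 0. The unadjusted edgeR p was below 0.05 for 3 (Hspa5, Calr and Rfx5), where 18.2% of all genes tested were below it. The median log2 fold change was -0.09. Hspa5, the endoplasmic reticulum chaperone BiP, was at 426 ± 58.0 CPM in SS-31H_CS and 607 ± 144 CPM in CS (-0.51, adjusted p = 0.221). Calr encodes calreticulin of the loading complex, with 468, 504 and 399.9 CPM in SS-31H_CS and 577, 513 and 641 CPM in CS. The Calr groups did not overlap (-0.34, adjusted p = 0.260). Rfx5, which binds the X box with NLRC5, was at 29.0, 32.6 and 30.2 CPM in SS-31H_CS and 25.1, 26.5 and 25.3 CPM in CS, also without overlap (0.26, adjusted p = 0.254). In this list the groups did not overlap in 3 of 20 genes, beside 26.1% of all genes tested. For Erap1, the peptide-trimming aminopeptidase, the value was -0.33 (adjusted p = 0.344), for Psmb10 -0.21 (adjusted p = 0.576) and for the interferon-induced factor Irf1 -0.26 (adjusted p = 0.503).

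In the standard proteasome the libraries fell in another order. Of 10 listed genes edgeR, limma voom and DESeq2 each called 0, and Psmd1 alone had an unadjusted edgeR p below 0.05 (18.2% of all genes tested). All 10 had a negative log2 fold change (median -0.20), where 51.4% of all genes were positive. Psmd1, a subunit of the regulatory cap, was at 86.9, 92.6 and 94.0 CPM in SS-31H_CS and 108, 109.9 and 155 CPM in CS (-0.45, adjusted p = 0.198). Psmd4 (-0.29, adjusted p = 0.383), Psme4 (-0.23, adjusted p = 0.412) and Psmb7 (-0.22, adjusted p = 0.412) had the next lowest p. The other standard counterparts of the inducible subunits, named whatever their p, were Psmb5 (-0.18, adjusted p = 0.480) and Psmb6 (-0.17, adjusted p = 0.565). CS replicate 3 was highest, with an average centred log2 level of 0.36, against -0.13 to -0.01 in the other 5 libraries.

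Of 17 other class I heavy chain genes 13 were tested, and edgeR, limma voom and DESeq2 each called 0. Fcgrt alone had an unadjusted edgeR p below 0.05, where 18.2% of all genes tested were below it. The median log2 fold change was 0.18 with 10 positive values (51.4% of all genes were positive). Fcgrt, the neonatal Fc receptor chain, was at 104, 87.3 and 118 CPM in SS-31H_CS and 83.0, 84.4 and 64.0 CPM in CS (0.42, adjusted p = 0.224). H2-Q10 (-0.44, adjusted p = 0.348), H2-T10 (0.33, adjusted p = 0.385) and H2-T24 (-0.47, adjusted p = 0.421) came next. H2-T3, H2-M2, H2-Bl and Cd1d2 had too few counts, H2-M2 having 57 counts in SS-31H_CS replicate 2 and 4 to 18 in the other libraries. Of 12 genes for class I receptors and related receptors, edgeR, limma voom and DESeq2 each called 0. An unadjusted edgeR p below 0.05 was reached by 0 (18.2% of all genes tested), and the median was 0.41. Cd8a, the coreceptor of cytotoxic T cells, was at 13.3, 28.7 and 17.0 CPM in SS-31H_CS and 9.72, 15.7 and 4.50 CPM in CS (0.98, adjusted p = 0.289). Cd8b1 (0.67, adjusted p = 0.442) and Klrd1, the CD94 gene (0.92, adjusted p = 0.448), were also lowest in CS replicate 3, while the inhibitory receptor gene Lilrb4a was at 112, 79.6 and 32.9 CPM in SS-31H_CS and 121, 108 and 117 CPM in CS (-0.63, adjusted p = 0.392).

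Markers of cells that carry much class I differed between the libraries too. The 12 T and natural killer cell markers summed to 125, 267 and 158 CPM in SS-31H_CS replicates 1, 2 and 3. In CS replicates 1, 2 and 3 they summed to 153, 197 and 55.5 CPM, so replicate 2 was the highest of each group. The 5 pan-leukocyte markers summed to 1196, 1028 and 709.6 CPM in SS-31H_CS replicates 1, 2 and 3. In CS replicates 1, 2 and 3 they summed to 1074, 1107 and 861 CPM. Replicate 1 was thus the highest in SS-31H_CS and replicate 2 in CS, with the lowest value in SS-31H_CS replicate 3. The 8 endothelial markers summed to 3613 to 4780.1 CPM in SS-31H_CS and to 5096 to 6148 CPM in CS, without overlap. The highest endothelial sum was that of replicate 1 in SS-31H_CS and of replicate 2 in CS. Singly, 3 of the 8 did not overlap, all 8 had a negative log2 fold change, and DESeq2 called 2. The 10 alveolar macrophage markers summed to 803 to 1202 CPM in SS-31H_CS and to 1674 to 2097 CPM in CS, also without overlap. Chil3 was the largest (means of 633 CPM in SS-31H_CS and 1415 CPM in CS). Singly, 4 of the 10 did not overlap, all 10 were negative, and DESeq2 called 3. Over all genes tested 26.1% did not overlap, and DESeq2 called 5.78% of its genes. On each marker list edgeR called 0. The 8 dendritic cell markers summed to 112 to 134 CPM in SS-31H_CS and to 98.3 to 113 CPM in CS. Of these, 6 had a positive log2 fold change, and DESeq2 called 2 higher in SS-31H_CS. The 7 alveolar epithelial markers summed to 15241 to 20346 CPM in SS-31H_CS and 17364 to 19281 CPM in CS. Most of that sum was Sftpc (means of 14205 CPM in SS-31H_CS and 13282 CPM in CS). A negative log2 fold change was found for 6 of the 7, and DESeq2 called 1 lower. The 6 ciliated cell markers, without overlap, summed to 727 to 1061 CPM in SS-31H_CS and 388 to 555 CPM in CS. Each of the 6 was without overlap singly, and DESeq2 called 5 higher. No marker on these lists was at 0 counts in any library. The part of these cells in the class I values was not tested.

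**Figure D4:**
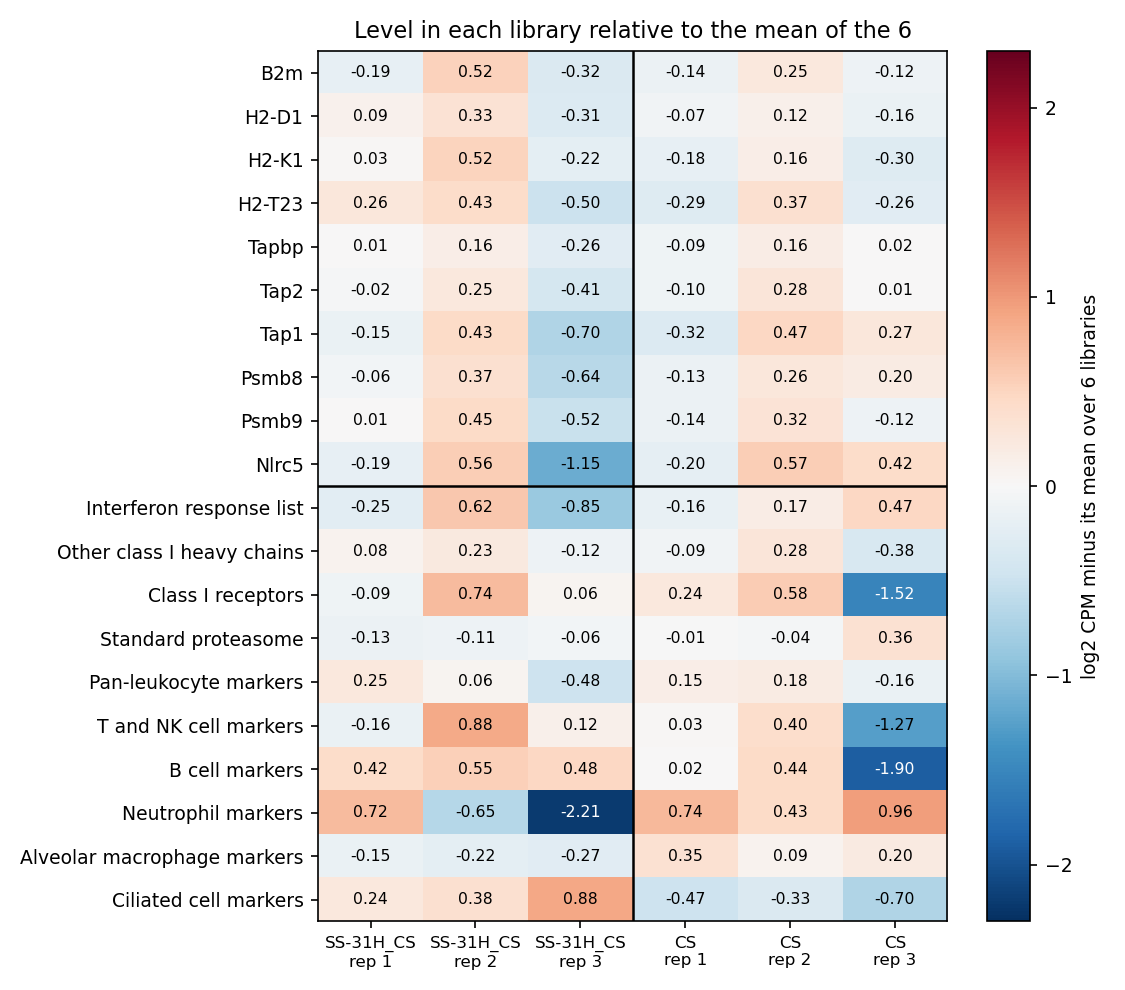
Log2 CPM of each class I gene, and the average over each list below the horizontal line, minus its mean over the 6 libraries; SS-31H_CS libraries are left of the vertical line and CS libraries right of it. Within each group the class I rows are highest in replicate 2 (averages 0.40 in SS-31H_CS and 0.30 in CS). Their lowest library is SS-31H_CS replicate 3 (average -0.50) for all but H2-K1, which is lowest in CS replicate 3, whereas the standard proteasome row is highest in CS replicate 3 (0.36).

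Leaving out the libraries that stood apart did not bring any class I gene past the threshold. The number called was 0 without CS replicate 3, 0 without SS-31H_CS replicate 3 and 0 without replicate 3 of both groups. Over all genes these fits called only 15, 2 and 36, so 0 of 10 carries little information. The median log2 fold change of the 10 genes ran from -0.26 to 0.12 over the 6 fits that each left out a single library.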

How the data were processed

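The members and gene lists were chosen with earlier results of these data known. Raw counts and FPKM, keyed by Ensembl identifier, were deposited by the authors for all 6 libraries; per the submitters' processing notes cutadapt 1.9.1, HISAT2 2.0.1, HTSeq 0.6.1 and GRCm38 were used, with annotation release, strand setting and read length not given in the sources used here. The authors' FPKM followed count and library total to within 0.325% over the 3310 genes whose count exceeded 1000 throughout. Symbols and GRCm38 coordinates came from GENCODE M21 (55394 of 55573 identifiers matched), promoter windows from RefSeq (GRCm38.p6).

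SS-31H_CS was compared with CS by edgeR 4.0.16 in R 4.3.3 (quasi-likelihood, TMM, two-sided, low-count filter with minimum count 10 and minimum total 15, Benjamini-Hochberg adjustment over 16965 genes). Centred levels and ratios use log2 CPM with a prior count of 2. Standard errors were taken from the quasi-likelihood F statistic, and intervals are 95%. A count of 3 corresponded to 0.172 to 0.185 CPM. Alternatives were DESeq2 1.42.0, limma 3.58.1 (voom, and trend on log2 FPKM), other scalings, filters and thresholds, the replicate number as a block, and left-out libraries.

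The 10 genes are named whatever their result. From each further list, genes past the threshold and up to 4 with the lowest p are named, plus Psmb10, Irf1, Psmb5, Psmb6 and Psmb7. Beyond the genes named, 1 further gene that the rules select is not reported here.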

Additional observations from a re-analysis of the deposited data

How the results depend on the processing

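The number of class I genes past the threshold and the number of genes past it in the further pathway lists were 0 under all 19 alternatives run for each. Of 180 values of single class I genes under alternatives, 157 kept their direction and 23 changed sign, none of them past the threshold. Psmb9 turned to 0.055 with library size alone, 0.00051 with a filter of 1 CPM in at least 3 libraries, 0.016 on log2(FPKM + 1) with or without a filter on the mean and 0.015 on log2(FPKM + 0.1), and Tapbp to 0.0054 with library size alone. Without replicate 3 of both groups Tap1 was at 0.042, Tap2 at 0.02, Tapbp at 0.046, Psmb8 at 0.086 and Psmb9 at 0.14. Over the 6 single libraries left out, the log2 fold change ran from -0.26 to 0.20 for B2m, -0.066 to 0.25 for H2-D1, -0.044 to 0.39 for H2-T23, -0.28 to 0.043 for Tap2, -0.15 to 0.052 for Tapbp, -0.44 to 0.045 for Psmb8, -0.27 to 0.21 for Psmb9, -0.57 to -0.0080 for Tap1, 0.00044 to 0.38 for H2-K1 and -0.89 to -0.07 for Nlrc5. The subunit differences ran from -0.28 to 0.23 (Psmb8 to Psmb5), -0.16 to 0.38 (Psmb9 to Psmb6) and -0.17 to 0.15 (Psmb10 to Psmb7).

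The number of all genes past the threshold, 26, was 12 with library size alone, 648 without the low-count filter, 941 by DESeq2, 6 by limma voom, 6 on log2(FPKM + 1), 5 on log2(FPKM + 0.1), 4 on log2(FPKM + 1) without a filter, 299 at an adjusted p under 0.1, and 1 to 15 over single libraries left out; the cause was not tested. With the replicate block it was 0. Same-numbered libraries did not deviate together over all genes (correlations of 0.0072, 0.036 and -0.057), so the numbers were not taken as pairs, and not every library correlated best with its own number. With 3 libraries a group, 4 of 10 intervals are within 1.5-fold, which limits what can be said of smaller changes.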
